A study of Mus musculus with 45 samples.

Results

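The regions described here, 363 of 184964 ATAC-seq peaks measured in mouse embryonic stem cells (mESC), opened late after loss of the transcription factor SOX2. After 24 h of OCT4 loss they were at most 1.2 times their control level, and earlier times after OCT4 loss were not limited. They were selected on their measured accessibility. Counts were scaled to the library total over all peaks outside the mitochondrial genome (CPM), and replicate libraries were averaged. A region was kept when the mean after 24 h of SOX2 depletion was at least 4 CPM and at least 1.75 times the control (NT) mean, when the mean at 2 h was at most 1.25 times NT, and when the mean after 24 h of OCT4 depletion was at most 1.2 times NT in the OCT4 line. The changes in those libraries are therefore a description and carry no test. Of 1375 regions that met the criteria for SOX2 alone, 624 also reached 1.75 times NT after OCT4 depletion; these regions, gained in both depletions, are used below as the nearest comparison.

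The cells carried FKBP degradation tags on both copies of one factor, which dTAG-13 (500 nM) sends to the proteasome; NT cells received the solvent DMSO instead. SOX2-FKBP and NANOG-FKBP cells were E14 mESC and OCT4-FKBP cells were V6.5 mESC, so that factor and genetic background cannot be told apart between lines. The SOX2-FKBP line was measured as NT and after 0.5, 1, 2, 6 and 24 h with 2 libraries each, the OCT4-FKBP line as NT and after 2, 6 and 24 h with 2 libraries each, and the NANOG-FKBP line at the same times with 2 NT libraries and 3 per treated time. All cells grew on gelatin in serum-free medium with LIF and the MEK and GSK3 inhibitors. The study's methods mention a further clone for SOX2, and the labels do not say whether any SOX2-FKBP library used here came from it. Nothing in the labels says that replicate libraries came from separate cultures, so p-values measure only the spread between these libraries.

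SOX2 is an HMG-box factor that binds DNA together with OCT4 (Pou5f1) at enhancers and helps to keep them accessible to other proteins. ATAC-seq reads accessibility from the places where a transposase can insert into chromatin. Loss of SOX2 or OCT4 from mESC is known to end self-renewal and to let trophoblast-like programmes appear. NANOG is the third factor of the core pluripotency network.

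The sequences below are from the RefSeq copy of the GRCm38 (mm10) reference, plus strand, 200 bases around the summit. They are the 4 regions with the highest ratio of 24 h to NT among those with at least 10 CPM at 24 h, and the 3 regions that passed the test of a rise at 6 h described further on. Capitals mark the nuclear receptor core AGGTCA, the E-box CAGCTG and the SOX core ACAAAG on either strand. A POU octamer (ATGCAAAT) was also searched for and was found in none of the 7.
Mfsd2b region (chr12:4864002-4864201): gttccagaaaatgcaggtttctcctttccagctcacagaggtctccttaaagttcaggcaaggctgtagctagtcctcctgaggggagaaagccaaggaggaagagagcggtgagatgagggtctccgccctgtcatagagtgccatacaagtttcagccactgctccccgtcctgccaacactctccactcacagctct
Ralgds region (chr2:28551758-28551957): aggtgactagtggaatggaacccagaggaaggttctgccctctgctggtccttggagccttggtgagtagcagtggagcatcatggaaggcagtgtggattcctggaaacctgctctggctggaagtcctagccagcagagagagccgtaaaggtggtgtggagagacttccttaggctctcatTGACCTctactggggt
Bcar1 region (chr8:111717858-111718057): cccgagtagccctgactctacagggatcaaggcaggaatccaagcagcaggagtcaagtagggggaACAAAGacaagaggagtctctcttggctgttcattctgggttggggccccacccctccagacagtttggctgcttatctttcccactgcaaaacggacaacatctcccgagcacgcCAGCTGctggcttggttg
Rpap3 region (chr15:97680309-97680508): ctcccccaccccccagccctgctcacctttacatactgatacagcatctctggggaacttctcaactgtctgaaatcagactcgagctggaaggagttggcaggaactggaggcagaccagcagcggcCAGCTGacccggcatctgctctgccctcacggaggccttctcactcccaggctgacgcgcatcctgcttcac
Grik4 region (chr9:42774245-42774444): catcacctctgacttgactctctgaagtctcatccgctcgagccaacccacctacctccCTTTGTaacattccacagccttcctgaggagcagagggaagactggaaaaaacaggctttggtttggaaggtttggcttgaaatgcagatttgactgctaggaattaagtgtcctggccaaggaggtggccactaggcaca
Plxna2 region (chr1:194027366-194027565): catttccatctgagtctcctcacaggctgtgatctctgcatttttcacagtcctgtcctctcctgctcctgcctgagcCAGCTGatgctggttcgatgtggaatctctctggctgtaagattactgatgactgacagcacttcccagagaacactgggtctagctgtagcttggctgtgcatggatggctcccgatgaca
Eif1b region (chr9:120473975-120474174): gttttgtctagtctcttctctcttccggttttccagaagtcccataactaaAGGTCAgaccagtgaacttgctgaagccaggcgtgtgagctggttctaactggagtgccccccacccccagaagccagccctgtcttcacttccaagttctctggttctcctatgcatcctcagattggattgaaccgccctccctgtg
The nuclear receptor core stood in 2 of these windows (Ralgds and Eif1b), the E-box in 3 (Bcar1, Rpap3 and Plxna2) and the SOX core in 2 (Bcar1 and Grik4). The Mfsd2b window held none of the 4 patterns.

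Library totals ran from 1817191 to 17575631 fragments in peaks. In the NANOG-FKBP line the replicate 2 libraries of the 3 treated times were shallow (1817191 to 3272168 fragments) and held 13.2 to 17.6% mitochondrial counts, against 1.43 to 6.65% in all other libraries. Among the embryonic stem cell markers, 9 of 10 had a peak within 500 bases of an annotated start, at 5.91 to 59.95 CPM in NT SOX2-FKBP cells; no such peak was listed for Pou5f1. Starts of 6 of 8 trophoblast, 6 of 7 primitive endoderm and 6 of 6 fibroblast markers also had a peak (4.47 to 28.0, 8.66 to 33.5 and 0.85 to 10.2 CPM), so open starts alone did not separate these cell types; of all these markers Krt18, a keratin gene, alone had one of the 363 regions at its start. The peak at the start of Krt7, another keratin gene, is not among the 363 and went from a mean of 4.47 CPM in NT to 17.7 at 24 h of SOX2 depletion. The other trophoblast markers moved less. Krt18 went from 4.54 to 8.35 CPM, Cdx2 from 10.0 to 12.05, Hand1 from 6.88 to 7.92, Elf5 from 5.79 to 5.76 and Tfap2a from 28.0 to 20.8.

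Accessibility at the 363 regions stayed near its NT level for the first hours and then climbed. In SOX2-FKBP cells the median was 3.21 and 3.02 CPM in the NT libraries and 3.40 to 3.88 in the 6 libraries of the first 2 h of dTAG-13. It was 4.38 and 4.31 CPM at 6 h and 6.63 and 6.08 at 24 h, which put both 6 h libraries above every earlier library and both 24 h libraries above both at 6 h. The median over all peaks lay between 2.39 and 2.74 CPM in the 12 libraries of this line. Relative to NT, the median ratio lay between 1.09 and 1.15 over the first 3 times, then reached 1.38 at 6 h and 1.94 at 24 h. The 24 h ratio ran from 1.75 to 4.72 with quartiles of 1.83 and 2.17, and 360 of the 363 regions were at their highest group mean at 24 h. The rule set a floor on the 24 h ratio and a cap on the 2 h ratio, so this order follows in large part from the selection. In bulk cells, more accessibility per cell and more cells with an open site cannot be told apart. At 6 h the median region had covered 36.3% of the distance between its NT and 24 h means (quartiles 23.5 and 49.9%). The rule used both of those means, so part of this share can follow from the selection. The median ratio to NT was already 1.09 at 0.5 h and 1.15 at 1 h, beside 1.03 and 1.04 over all peaks.

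**Figure D1:**
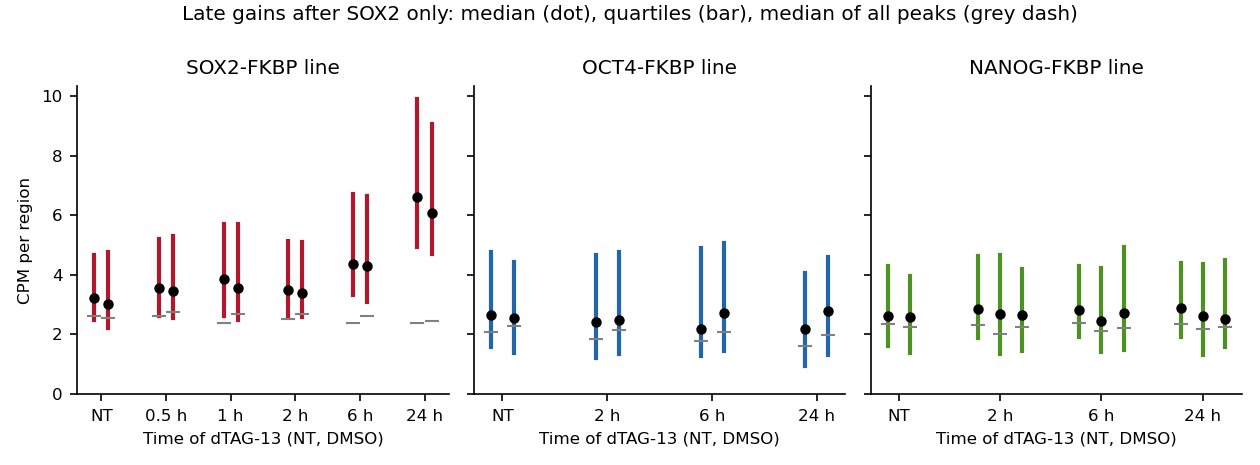
CPM (y axis) of the 363 regions in each of the 31 libraries (x axis, line and time of dTAG-13), with the median as a dot, the quartiles as a bar and the median of all peaks as a grey dash. In the SOX2-FKBP panel the median moves from 3.21 and 3.02 CPM in NT to 6.63 and 6.08 CPM at 24 h, while the dots of the OCT4-FKBP and NANOG-FKBP panels stay between 2.17 and 2.89 CPM.

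In OCT4-FKBP cells the same regions had a median of 2.65 and 2.56 CPM in NT. It was 2.41 and 2.5 after 2 h, and the later libraries had 2.20 and 2.72 (6 h) and 2.17 and 2.79 (24 h). The replicates at 6 h and 24 h were further apart than the group means. The median ratio to NT at 24 h, which the rule holds at 1.2 or less, was 0.949, beside 0.918 over all peaks. In NANOG-FKBP cells, which the rule did not use, the medians were 2.63 and 2.58 CPM in NT and 2.89, 2.61 and 2.51 at 24 h, with a median ratio of 1.02. The regions gained in both depletions had reached 1.42 times NT at 6 h of SOX2 depletion and 1.57 times NT at 6 h of OCT4 depletion, against 1.38 and 1.00 for the SOX2-only regions. These ratios are divided by NT means that the selection used, so part of the difference between the sets can follow from the selection.

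**Figure D2:**
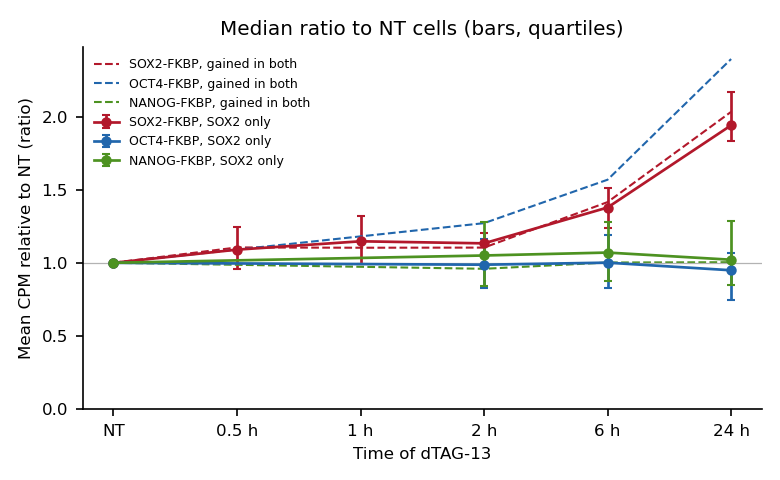
Mean CPM relative to NT (y axis, ratio of group means, median over regions) by time of dTAG-13 (x axis, not to scale) for the 363 SOX2-only regions (solid, bars are quartiles) and the 624 regions gained in both depletions (dashed). The 2 sets run together in the SOX2-FKBP line and part in the OCT4-FKBP line, where the 24 h medians are 0.949 and 2.39. The choice of the sets fixed the 24 h SOX2 and OCT4 ratios and capped the 2 h SOX2 ratio. It also used the NT means by which all ratios of these 2 lines are divided.

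The members just inside and just outside each threshold show how fine the selection was. The level criterion separated a region nearest Tigd5 at 4.03 CPM from one nearest Nrd1 at 3.98 CPM. The gain criterion kept a region nearest Rpl14 at a ratio of 1.7507 and left out one near Fscn2 at 1.7492, and the 2 h criterion kept a region near Nedd4l at 1.2495 and left out one near Gpalpp1 at 1.2513. For OCT4, a region near Itpr1 at 1.1997 was inside and one near Kif16b at 1.2016 was outside. Both 24 h libraries lay above both NT libraries at 361 of the 363 regions, where 29.4% of all peaks showed the same order; that order follows from the selection.

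Most of the regions were weakly accessible and lay away from annotated starts. Their NT mean in SOX2-FKBP cells had a median of 3.13 CPM, beside 2.60 over all peaks and 8.13 over the 61926 peaks that passed the 24 h level of 4 CPM. Only 43 of the 363 (11.8%) had a summit within 500 bases of an annotated transcript start, against 13.2% of all peaks, 27.2% of the peaks at that level and 35.4% of the regions gained in both depletions. By the GENCODE annotation, 54.8% of the summits lay in introns, 30.03% between genes, 6.89% in coding exons and 4.41% in untranslated regions. The median distance to the nearest start of a protein-coding gene was 10.2 kb, the median width 812 bases (636 over all peaks) and the median GC content 51.8% (50% over all peaks). The nearest gene is given below as a label of position, since the data do not tie a region to a target.

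The highest gain was in an intron of Mfsd2b, which codes for a sphingosine-1-phosphate exporter, 5.16 kb downstream of a start (chr12:4863793-4864507). Its CPM was 3.60 and 2.06 in NT, 1.28 to 3.75 in the 6 libraries of the first 2 h, 3.96 and 4.59 after 6 h, then 14.4 and 12.3 at 24 h. The rise came almost wholly after 6 h and ended at 4.72 times NT. Its OCT4-FKBP libraries ran from 1.71 to 2.98 CPM and its NANOG-FKBP libraries from 1.33 to 4.58 CPM, all below both 24 h SOX2 libraries.

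The region in an intron of Ralgds, an exchange factor for Ral GTPases, went from 2.63 and 3.49 CPM in NT to 4.90 and 4.96 at 6 h and 11.4 and 8.96 at 24 h (chr2:28551648-28552160, ratio 3.33). At Bcar1, which codes for the focal adhesion adaptor p130Cas, an intronic region stood at 5.74 and 6.35 CPM in NT, 7.61 and 5.90 at 6 h and 17.1 and 14.6 at 24 h (chr8:111717076-111718325, ratio 2.62). This region was more open in NT OCT4-FKBP cells, with 10.1 and 10.0 CPM, and ended there at 9.35 and 9.53. The region at the start of Rpap3, a cofactor in RNA polymerase assembly, with its summit in a coding exon, moved from 3.79 and 4.92 CPM to 7.09 and 6.37 at 6 h and 11.9 and 9.71 at 24 h (chr15:97680063-97680776, ratio 2.49). An intronic region of Rpap1, coding for a protein bound to RNA polymerase II, had 6.42 and 5.87 CPM in NT, 7.82 and 7.49 at 6 h and 16.2 and 14.3 at 24 h (chr2:119771076-119772323, ratio 2.48). In all of these the 24 h libraries lay above all other libraries of the SOX2-FKBP line.

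**Figure D3:**
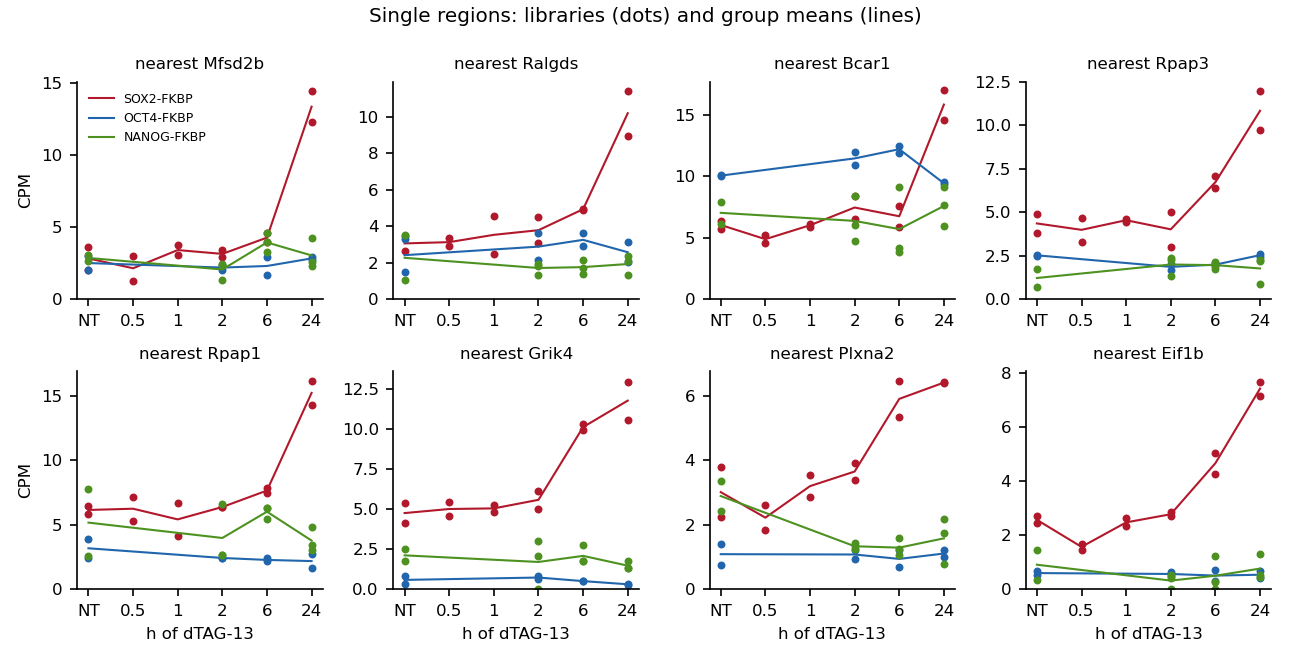
CPM (y axis) of 8 single regions by time of dTAG-13 (x axis, not to scale), with 1 dot per library and lines through the group means of the SOX2-FKBP (red), OCT4-FKBP (blue) and NANOG-FKBP (green) lines. Mfsd2b reaches 14.4 and 12.3 CPM only at 24 h, whereas the Grik4 region is already at 9.91 and 10.3 CPM at 6 h.

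Whether the rise had begun by 6 h was tested in libraries that took no part in the selection, by setting the 2 libraries at 6 h of SOX2 depletion against the 4 at 0.5 h and 1 h. The 6 h libraries were higher at most regions but by little. Of the 363 regions, 362 had enough counts to be tested, and 306 of them (84.5%) had a positive log2 fold change where 51.6% of all peaks did. Where no library had under 10 counts, 27 of 42 regions (64.3%) were positive, with a median of 0.12. Over all 362 the median log2 fold change was 0.28 (quartiles 0.09 and 0.48), beside 0.01 over all 168465 peaks tested, 0.07 over those at the 24 h level and 0.38 over the regions gained in both depletions. Both 6 h libraries lay above all 4 early libraries at 116 regions (32.0%) and below all 4 at 4 regions, where 9.9% and 10.7% of all peaks did so.

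At the level of single regions, 3 of 362 (0.829%) rose at 6 h with a Benjamini-Hochberg adjusted p under 0.05 in edgeR's quasi-likelihood test, where 0.06% of all peaks tested did. No region fell, where 0.706% of all peaks did. At an unadjusted p under 0.05, 67 regions (18.5%) were higher and 1 (0.276%) lower, where 3.11% and 5.95% of all peaks were. The replicate numbers paired libraries in this line, and with the replicate number as a block 19 of 362 rose and none fell, the first 3 among them, where 0.707% of all peaks rose and 2.62% fell. DESeq2 called none of the 222 regions it gave an adjusted p, where 39 of 83545 such peaks were higher and 1218 lower. Without 0.5 h replicate 1 the count of 3 fell to 1, and without any other of the 6 libraries compared it fell to 0. A median region held 19 to 34 fragments in the 4 early libraries and 42 and 46 in the 6 h libraries, which limits what a test of 1 region can show.

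The region with the lowest adjusted p was in an intron of Grik4, which codes for a subunit of kainate-type glutamate receptors, 34.4 kb downstream of a start (chr9:42774026-42774922). It had 5.42 and 4.57 CPM at 0.5 h, 5.24 and 4.82 at 1 h and 9.91 and 10.3 at 6 h, so the 6 h libraries did not overlap the early ones. Its log2 fold change was 0.99 ± 0.24 (SE, edgeR adjusted p = 0.026, from 0.000124 to 0.339 over the alternatives), and at 24 h it stood at 12.9 and 10.6 CPM. An intergenic region whose nearest coding start was that of Plxna2, a semaphorin receptor gene (at -590.8 kb, chr1:194027007-194027728), went from 1.83 to 3.53 CPM in the 4 early libraries to 6.47 and 5.34 at 6 h, a log2 fold change of 1.10 ± 0.27 (SE, edgeR adjusted p = 0.031, from 0.000855 to 0.558). It had 6.41 and 6.403 CPM at 24 h, within the 6 h pair's range of 5.34 to 6.47. The region 18.2 kb upstream of Eif1b, a gene of translation initiation, went from 1.46 to 2.62 CPM in the early libraries to 4.28 and 5.05 at 6 h (chr9:120473869-120474223, log2 fold change 1.22 ± 0.32, SE, edgeR adjusted p = 0.046, from 0.00123 to 0.489). A second region upstream of Eif1b (chr9:120478099-120479070) had 3.55 and 3.56 CPM at 6 h and 4.56 and 7.68 at 24 h, and its log2 fold change at 6 h was 0.13 ± 0.28 (SE, edgeR adjusted p = 0.95).

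The 16 further regions that rose with the block alone had blocked log2 fold changes of 0.59 to 1.08. The regions nearest Zfp64, a zinc finger gene, Rps29, a ribosomal protein gene whose start is 732.3 kb away, and Pla2g1b, a phospholipase gene, had blocked log2 fold changes of 0.79 ± 0.18, 0.66 ± 0.16 and 0.62 ± 0.16 (SE). At Zfp64 (chr2:168948541-168949347) the 4 early libraries had 5.30 to 7.29 CPM and the 6 h libraries 11.2 and 11.9. These examples were chosen after their values were seen. None of the 19 lay within 500 bases of an annotated start, and at 18 of them both 6 h libraries were above all 4 early libraries.

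Between 0.5 h and 1 h of SOX2 depletion the median change over all 362 regions was smaller than that to 6 h. The median log2 fold change was 0.10 (quartiles -0.09 and 0.26) beside 0.01 over all peaks, 231 of 362 (63.8%) were positive with 51.3% of all peaks, and no region and no peak passed edgeR's test in either direction (0% of peaks higher and 0% lower). At an unadjusted p under 0.05, 7 regions (1.93%) were higher and 3 (0.829%) lower, where 0.933% and 1.37% of all peaks were. DESeq2 also called none, and 0 of 168465 peaks. Where no library had under 10 counts, 34 of 42 regions (81.0%) were positive, with a median of 0.15 beside 0.01 over the 33259 peaks. At these better covered regions the change to 1 h was thus not smaller than that to 6 h (64.3% positive, median 0.12).

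**Figure D4:**
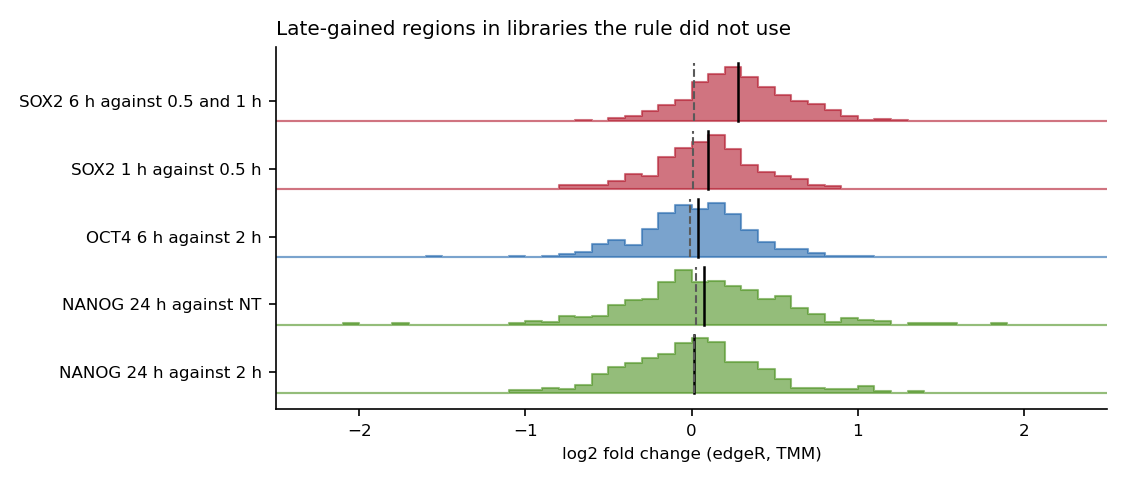
Distribution of the log2 fold change (x axis, edgeR with TMM scaling) of the 362 tested regions in 5 comparisons between libraries that the rule did not use, each scaled to its own highest bin. The solid line is the median of the regions and the dashed line that of all peaks; they are 0.28 and 0.01 in the first row, 0.10 and 0.01 in the second, and 0.04 and -0.01 in the OCT4-FKBP row.

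After OCT4 depletion the values at 2 h and 6 h lay close together. The median log2 fold change was 0.04 (quartiles -0.15 and 0.22), beside -0.01 over all peaks and 0.30 over the regions gained in both depletions. Without 1 of the 4 libraries it ran from -0.002 to 0.082, and that of the regions gained in both from 0.16 to 0.411, the lower ends without 2 h replicate 2. In edgeR's test none of the 362 regions passed in either direction, where 0.00119% of peaks were higher and 0.00237% lower. With the replicate block none passed either (0.207% of peaks higher, 0.582% lower). DESeq2 called none of 103, where 3 of 54150 peaks were higher and 13 lower. At an unadjusted p under 0.05 without the block 3 (0.829%) were higher and 3 lower, where 1.59% and 3.44% of all peaks were. Both 6 h libraries lay above both 2 h libraries at 57 regions (15.7%, with 13.1% of all peaks) and below them at 47 (12.9%, with 16.9% of all peaks). A change complete by 2 h does not show in this comparison. Against the NT mean, which the rule used, 167 regions were higher at 2 h and 196 lower. The region nearest Ptprg, named after its values were seen, had 3.81 and 3.90 CPM in NT OCT4-FKBP cells. It had 12.95 and 9.78 at 2 h, 11.4 and 12.8 at 6 h and 2.71 and 5.75 at 24 h.

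The rise to 6 h was then compared between the lines in 1 contrast, although the early times differ between them. The difference, SOX2-FKBP minus OCT4-FKBP, had a median of 0.24 on the log2 scale (quartiles -0.01 and 0.52), beside 0.01 over all peaks and 0.07 over the regions gained in both depletions, and was positive at 266 of 362 regions (73.5%, with 51.2% of all peaks). Without 1 library the median of the regions gained in both ran from -0.079 to 0.202. No single region passed the test of the difference with edgeR (0% of peaks higher, 0.00534% lower) or with the replicate block (0.00653% higher, 0.151% lower). At an unadjusted p under 0.05 without the block 12 regions (3.31%) were higher and 1 (0.276%) lower, where 1.43% and 1.8% of all peaks were. DESeq2 called none of 144, where 0 of 63948 peaks were higher and 21 lower. No difference in timing was thus called at a single region, which does not show that the timing was equal.

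The OCT4 criterion rested on few fragments at part of the regions. The 2 OCT4-FKBP libraries at 24 h together held a median of 32 fragments per region, and 35 regions had fewer than 10. In NT OCT4-FKBP cells 43 regions were under 1 CPM, or 11.8%, against 3.42% of the peaks at the 24 h level, 22.3% of the regions gained in both depletions and 23.3% of all peaks; the median of these 43 regions was 8 fragments at 24 h of OCT4 depletion. The Grik4 region was one of them, with 0.332 and 0.814 CPM in NT and 0.271 and 0.329 at 24 h. NT accessibility relative to SOX2-FKBP cells had a median of 0.798 in OCT4-FKBP cells and 0.798 in NANOG-FKBP cells. These medians were 0.942 and 0.944 over all peaks, and 0.711 and 0.85 over the regions gained in both depletions. At regions with low NT accessibility in OCT4-FKBP cells, a low ratio after OCT4 depletion and a closed site cannot be told apart.

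Few of the regions passed the test after NANOG depletion. The median log2 fold change at 24 h against NT was 0.07 (quartiles -0.16 and 0.36), beside 0.03 over all peaks, and against 2 h it was 0.01, beside 0.02 over all peaks. Against NT, 1 of 362 regions rose and 2 fell in edgeR's test, where 0.324% of all peaks rose and 2.3% fell. Against 2 h none passed in either direction (0.0356% of peaks higher, 0.0991% lower). For that comparison DESeq2 called none of 154, where 58 of 67214 peaks were higher and 271 lower. At an unadjusted p under 0.05, 9 regions (2.49%) were higher and 5 (1.38%) lower, where 3.68% and 3.88% of all peaks were. The 24 h libraries lay above both NT libraries at 41 regions (11.3%, with 10.4% of all peaks) and below them at 26 (7.16%, with 13.4% of all peaks).

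The region that rose after NANOG depletion was nearest Stn1, a gene of the telomere-capping CST complex (chr19:47491627-47492313). It had 8.18 and 4.65 CPM in NT and 11.4, 16.1 and 13.1 at 24 h, a log2 fold change of 1.02 ± 0.29 (SE, edgeR adjusted p = 0.037). Its SOX2-FKBP libraries were at 9.83 and 7.46 CPM in NT and 19.7 and 15.3 at 24 h. Regions whose nearest coding starts were those of Brinp2, a gene expressed in neurons and 313 kb away, and Chst3, a chondroitin sulfotransferase gene 17.9 kb away, fell. The Brinp2 region (chr1:157983161-157983918) went from 4.38 and 3.79 CPM to 1.75, 0.435 and 0.793, by -1.74 ± 0.42 on the log2 scale (SE, edgeR adjusted p = 0.011), and the Chst3 region (chr10:60170370-60170952) from 8.18 and 5.00 to 2.54, 0 and 0.793, by -2.09 ± 0.51 (SE, edgeR adjusted p = 0.020). Both were also lower in OCT4-FKBP cells, where the rule capped the 24 h ratio. There the Brinp2 region went from 1.41 and 2.97 CPM in NT to 0.271 and 0 at 24 h, and the Chst3 region from 1.91 and 3.14 to 1.08 and 1.31. The Stn1 region had 3.15 and 4.25 CPM there in NT and 3.39 and 4.76 at 24 h. The NANOG-FKBP value of 0 at Chst3 is from the shallow replicate 2 library. Over the alternatives the adjusted p ran from 0.000615 to 0.456 at Stn1, 0.000508 to 0.163 at Brinp2 and 1.05e-05 to 0.34 at Chst3. Without that library 2 regions fell and none rose. Without replicate 3 at 24 h none of the 362 passed in either direction, and without replicate 1 of NT 1 rose and none fell; without either of the remaining libraries 1 rose and 3 fell.

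Short sequence patterns were counted in the 200 bases around each summit, on both strands, for the 362 regions on assembled chromosomes; the rule used no sequence. The nuclear receptor core AGGTCA was in 100 of them (27.6%), against 17.97% of all peaks, 18.4% of peaks at the 24 h level and 21.6% of the regions gained in both depletions. The longer CAAGGTCA, the form bound by the orphan receptor ESRRB, which contains the core, was in 25 (6.91%, with 4.25% of all peaks and 4.80% of peaks at that level). Away from starts it was in 6.27%, beside 6.10% of peaks at that level and 6.45% of the regions gained in both, so there the shares lay close together. The E-box CAGCTG, bound by many basic helix-loop-helix factors, was in 83 regions (22.9%) against 15.0% of all peaks, 15.9% at that level and 23.9% of the regions gained in both. The E-box CAGGTG was in 100 (27.6%) against 21.0% of all peaks, 20.6% at that level and 24.7% of the regions gained in both. The POU octamer ATGCAAAT was in 15 (4.14%), with 2.05% of all peaks, 2.15% at that level and 1.44% of the regions gained in both.

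Patterns of SOX factors were not frequent. ACAAAG was in 45 regions (12.4%), with 17.2% of all peaks, 14.3% at the 24 h level and 17.2% of the regions gained in both depletions. ACAATGG was in 4 (1.10%), with 3.72% of all peaks, 2.57% at that level and 2.08% of the regions gained in both. The composite pattern on which SOX2 and OCT4 bind side by side was found in none of the 362 and in none of the 624 gained in both. It was in 0.29% of all peaks and 0.18% at the 24 h level, and at such low shares its absence says little. The CTCF pattern was in 7 (1.93%, with 3.85% of all peaks), CCAAT in 64 (17.7%, with 22.4%) and the AP-1 pattern TGANTCA in 20 (5.52%, with 6.98%). In the regions gained in both depletions these 3 patterns were in 1.12%, 17.95% and 6.73%. The GC box GGGCGG was in 14.4% of the SOX2-only regions and in 27.1% of those gained in both depletions, and TFAP2's GCCNNNGGC in 8.84% and 17.1%; those regions lie more often at starts. With regions near starts left out, the GC box was in 12.9% and 14.1% and the TFAP2 pattern in 8.15% and 15.6%, while AGGTCA was in 28.2% of the SOX2-only regions, 27.3% of those gained in both and 21.8% of peaks at the 24 h level. A pattern is not a bound site, and the regions' own GC content was 51.8%.

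**Figure D5:**
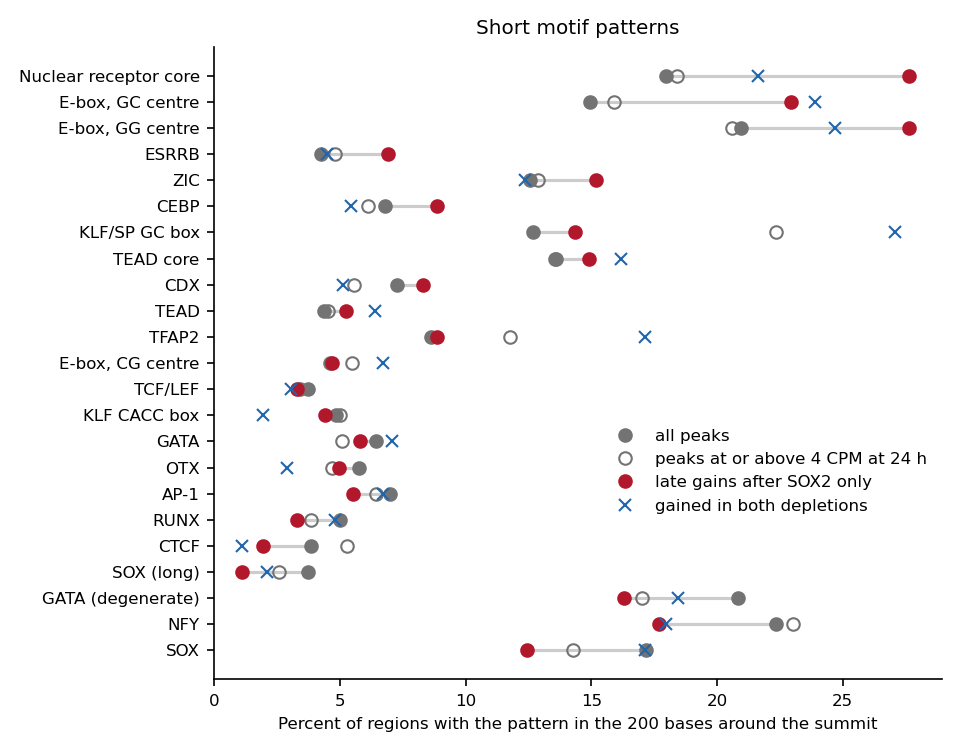
Percent of regions that hold each short pattern in the 200 bases around the summit (x axis) for patterns found in at least 3% of all peaks (y axis, ordered by the difference from all peaks). Red dots are the SOX2-only late gains, filled grey dots all peaks, open dots the peaks of at least 4 CPM at 24 h and crosses the regions gained in both depletions; the nuclear receptor core is listed first (27.6% of the regions against 17.97% of all peaks) and ACAAAG last (12.4% against 17.2%). The E-boxes are named by the letters at their centre.

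The regions were spread over the genome and over many genes. They were nearest to 349 different gene labels, and no more than 3 shared one gene. Of the 363, 20 (5.51%) had another of the set within 50 kb, somewhat more than the 3.24% of all peaks and 4.17% of the regions gained in both depletions. A peak that fell to 50% or less of NT by 2 h of SOX2 depletion lay within 50 kb of 82 (22.6%). That held for 26.2% of all peaks and 20.2% of the regions gained in both. Chromosome 2 held 40 of them and chromosome 4 held 34, or 0.818% and 0.752% of the peaks at the 24 h level there, whereas chromosome 3 held 6 (0.223%) and chromosome X held 2 (0.234%). Over all peaks at that level the share was 0.586%.

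The 5 genes with the most regions were Nedd4l, Dst, Eif1b, Eefsec and D430042O09Rik, the last 3 leading a tie of genes with 2 regions by having the fewest peaks. Nedd4l, a ubiquitin ligase gene, had 3 on chromosome 18, of which that at its start had 5.94 and 3.81 CPM in NT, 7.09 and 7.30 at 6 h and 9.78 and 8.11 at 24 h. The 3 regions nearest Dst, which codes for a cytoskeletal linker, ended at means of 8.82, 5.07 and 4.14 CPM, from 1.84 to 2.37 times NT. At Eefsec, a gene of selenocysteine incorporation, the stronger of 2 regions had 12.9 and 8.25 CPM in NT and 22.2 and 14.9 at 24 h, with replicate 1 above replicate 2 at every time. The 2 regions of D430042O09Rik were at 18.7 and 20.8 CPM and at 6.84 and 7.79 CPM at 24 h.

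Gene lists of pluripotency, early lineages and signalling held the regions at about the share of all peaks, 9 of 4491 peaks summed over the lists (0.2%, with 0.196% of all peaks). Of the 15 lists, 7 had at least 1 region nearest to a member gene: AP-1 and trophoblast had 2 each, and naive pluripotency, formative epiblast, the Sox family, Hippo-YAP and the tight junction and keratin list had 1 each, with Esrrb and Krt18 in 2 lists each. The share of peaks was 1.85% for AP-1 and 0.449% for trophoblast, from 108 and 445 peaks. No region was nearest to a gene of the primitive endoderm, mesendoderm, neural, p53, BMP and TGF-beta, Wnt, sterol synthesis or Polycomb and Hox lists, which had 66 to 453 peaks each; at 0.196% fewer than 1 region would fall in each of these lists.

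At Krt18, a keratin gene of simple epithelia, the region over the start (chr15:102027863-102028869) had 3.21 and 5.87 CPM in NT, 7.09 and 6.74 at 6 h and 8.80 and 7.90 at 24 h. It was at a like level in NT OCT4-FKBP cells, with 8.71 and 8.72 CPM, and in SOX2-FKBP cells after 24 h. A region 34.5 kb downstream of a start of Esrrb, a nuclear receptor gene of naive pluripotency (chr12:86538564-86539305), had 3.503 and 3.02 CPM in NT, 6.15 and 3.93 at 6 h and 7.71 and 5.98 at 24 h. The region upstream of Dnmt3a, coding for a DNA methyltransferase that sets new methylation (chr12:3836492-3836754), had 2.24 and 1.75 CPM in NT and 5.76 and 3.63 at 24 h. In an intron near Sox8 (chr17:25555205-25557283) the values were 6.23 and 6.82 CPM in NT and 15.7 and 10.99 at 24 h, and in one of Tead1, a partner of YAP (chr7:112876217-112877240), 1.65 and 2.70 CPM and 4.56 and 4.16. None of these regions passed edgeR's test at 6 h against 0.5 h and 1 h (adjusted p from 0.45 to 0.99).

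Fos and Jund code for AP-1 subunits, and Fos is an immediate-early gene that responds fast to growth factors. The region in an intron of Fos (chr12:85475278-85476557) had 5.35 and 5.39 CPM in NT, 4.48 and 3.75 at 6 h and 8.58 and 11.4 at 24 h of SOX2 depletion. That 1.81 kb downstream of a start of Jund (chr8:70700560-70701773) had 11.1 and 10.0, 12.9 and 12.0, and 20.6 and 19.0. In OCT4-FKBP cells the Fos region was at 32.1, 23.9, 31.2 and 32.9 CPM in the replicate 1 libraries from NT to 24 h and at 10.3, 11.2, 7.96 and 6.41 in the replicate 2 libraries. The Jund region there was at 63.3 to 86.8 CPM in replicate 1 and 21.9 to 29.6 in replicate 2. At both, replicate number separated the OCT4-FKBP libraries more than time did, and neither passed the test at 6 h of SOX2 depletion (log2 fold changes of -0.08 ± 0.78 and -0.12 ± 0.60, SE).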

How the data were processed

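Accessibility was measured by ATAC-seq in 31 libraries of 3 mESC lines, and 14 further samples of the series were not analysed here. Per the study's methods and the labels, the authors mapped reads to mm10 with BWA (0.7.17-r1188), kept alignments with SAMtools (1.10), removed duplicates with Picard (2.12.0), ran MACS2 on the merged time courses, and took the number of paired-end fragments over each peak. The deposited values are these raw counts, and the deposited peak list gives a fold enrichment (ratio) over the merged libraries. The 2 mitochondrial peaks stayed out of the CPM totals. All libraries with a count column were mapped through their titles.

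Groups were compared with edgeR (4.0.16, R 4.3.3; TMM, robust quasi-likelihood fit, Benjamini-Hochberg over all peaks, threshold 0.05) in 1 fit of 31 libraries, keeping a peak where over 6 libraries exceeded 10 counts. The code was tested on simulated data. DESeq2 (1.42.0), which the authors used, other scalings and filters, a replicate block, GC offsets, subsets of libraries and leaving out each library were alternatives. Same-numbered libraries deviated together in every pair of times in SOX2-FKBP (correlation 0.12 to 0.50) and OCT4-FKBP (0.34 to 0.61), so the numbers paired those libraries; in NANOG-FKBP they did not in all pairs (0.00 to 0.49). No 2 libraries were identical.

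Named regions were the 6 with the highest 24 h ratio at 10 CPM or more, those past the 6 h test (up to 8), the top 3 per gene list, the 5 genes with most regions and the neighbours of each threshold; regions past the NANOG test and those under 10 CPM past the 6 h test were named after their values were seen. A rule for the largest differences between the lines found none. Starts and features were from GENCODE vM21, with nearest starts over protein-coding genes, and sequences were from the RefSeq GRCm38.p6 genome; 166 peaks off the assembled chromosomes had no sequence. The regions, lists and tests were chosen with earlier results of these data known.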

Additional observations from a re-analysis of the deposited data

How the results depend on the processing

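The rule found 331 regions with TMM scaling (267 shared with the 363), 244 with DESeq2 size factors (197 shared) and 342 with mitochondrial counts in the totals (338 shared). Leaving out 1 of the 10 libraries it used gave 316 to 650 regions, the highest without SOX2-FKBP 24 h replicate 2, and 47.7 to 91.2% of the 363 were found again.

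The number of regions higher at 6 h than at 0.5 h and 1 h of SOX2 depletion was 3, and became 19 with the replicate block, 23 with the block and GC offsets, 15 with the SOX2-FKBP libraries alone, 0 with DESeq2 and 0 with at least 10 counts in every library (42 regions left). Without 1 of the 6 libraries it was 0 to 1; it was 0 without either 6 h library, without either 1 h library and without 0.5 h replicate 2, and 1 without 0.5 h replicate 1. The median log2 fold change was 0.12 with at least 10 counts in every library and 0.19 to 0.35 without 1 library. For 1 h against 0.5 h the median ran from -0.014 (without 1 h replicate 1) to 0.17, and for the difference between lines it was 0.14 with at least 10 counts in every library and 0.18 to 0.31 without 1 library; no region passed in either.

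For NANOG 24 h against NT, 1 region was higher and 2 lower. Counts over all peaks follow in brackets. With DESeq2 0 were higher (262 of 148868), with the block 6 (2103 of 168465) and with the block and GC offsets 8 (2254). The 6 were 1.66% of the regions, beside 1.7% of peaks at the 24 h level. With the NANOG-FKBP libraries alone 0 were higher (278), and with at least 10 counts in every library 0 (83 of 33259). Lower were 1 with the libraries the rule did not use alone (3781), 1 with NANOG-FKBP alone (3266) and 0 with the count minimum (733 of 33259). Without 1 library 0 to 1 were higher and 0 to 3 lower, with medians of 0.015 to 0.169. Against 2 h the block gave 1 higher and 1 lower (1122 and 1513 of 168465 peaks), also with GC offsets (706 and 1368). The block moved no other count by over 1.5 times; the cause of these changes was not tested. Scaling, filtering or library subsets other than those named kept each count within 1.5 times. Groups of 2 or 3 libraries were too small for a test of single outlying libraries. A median region held 4 to 7 fragments in the treated NANOG-FKBP replicate 2 libraries, the lowest of all, and 16 and 17 in the OCT4-FKBP 24 h libraries.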
